A study of Mus musculus with 10 samples.

Results

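Effector lymphocytes, the natural killer (NK) cells and T cells that kill tumor cells, are steered by a small set of transcription factors, and the levels of 10 genes for such factors were measured in WEHI 164 tumors before local immunotherapy. The genes were Tbx21, Eomes, Tox, Tcf7, Prdm1, Id2, Nfil3, Zeb2, Runx3 and Batf. They were taken by name from the deposited table, where each occurred on a single row among 36009 rows. WEHI 164 is a mouse fibrosarcoma line, and it was grown under the skin of female BALB/c mice of wild-type (WT) genotype. Part of each tumor was cut out and its RNA was sequenced. A hydrogel that releases poly(I:C), a double-stranded RNA mimic that triggers type I interferon, was then placed on what remained. Mice whose tumor regressed completely were the responders (5 mice) and mice whose tumor grew without delay were the non-responders (5 mice). Every sequenced piece was therefore untreated, and the groups shared line, strain, sex and genotype and differed in what happened later. The mice's age was not stated in the labels, the tumors all came from a single cell line, and each mouse gave 1 piece of bulk tissue. The groups were compared to ask whether the tumor before treatment differs between mice that respond and mice that do not.

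The T-box factors T-bet (Tbx21) and Eomes drive the cytotoxic program of NK cells and CD8 T cells and directly activate genes such as those for interferon gamma and perforin. Runx3 works beside them in CD8 T cells, Id2 and Nfil3 are needed for NK and innate lymphoid cells to form, Batf is an AP-1 factor of activated T cells, and Blimp-1 (Prdm1) and Zeb2 act in terminal differentiation. Tcf7 encodes TCF-1, which maintains naive, memory and stem-like T cells, and Tox shapes exhausted T cells. Several of these genes are not limited to lymphocytes: Id2, Zeb2, Prdm1, Nfil3 and Batf are also used by myeloid or stromal cells, and Tcf7 also acts in Wnt signaling outside lymphocytes.

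The bases just upstream of Tbx21, Eomes and Runx3 are shown because they encode the T-box and RUNX factors that act together in cytotoxic lymphocytes. The windows are the 250 bases before the transcription start in the RefSeq table for GRCm38.p6, read 5′ to 3′ on the strand of the gene, and capitals mark motif matches. The Tbx21 window is chr11:97115332-97115581 on the minus strand, the Eomes window is chr9:118477939-118478188 on the plus strand, and the Runx3 window is chr4:135120395-135120644 on the plus strand, at the upstream start of the gene.
Tbx21: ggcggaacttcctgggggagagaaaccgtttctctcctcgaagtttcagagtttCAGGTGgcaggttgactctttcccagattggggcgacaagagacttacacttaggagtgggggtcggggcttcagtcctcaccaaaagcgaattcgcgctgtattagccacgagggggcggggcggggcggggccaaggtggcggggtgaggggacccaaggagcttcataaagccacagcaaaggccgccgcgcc
Eomes: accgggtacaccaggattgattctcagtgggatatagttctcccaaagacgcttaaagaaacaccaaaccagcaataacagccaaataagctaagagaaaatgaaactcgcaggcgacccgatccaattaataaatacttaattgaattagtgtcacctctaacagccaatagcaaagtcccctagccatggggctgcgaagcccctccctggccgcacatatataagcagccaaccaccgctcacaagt
Runx3: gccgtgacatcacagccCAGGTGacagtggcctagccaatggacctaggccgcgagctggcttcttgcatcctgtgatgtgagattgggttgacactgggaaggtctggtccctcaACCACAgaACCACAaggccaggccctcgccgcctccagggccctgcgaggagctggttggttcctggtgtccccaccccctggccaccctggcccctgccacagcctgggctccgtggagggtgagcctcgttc

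Motif letters of 8 kinds were searched on both strands: T-box GGTGTGA, RUNX TGTGGT, AP-1 TGANTCA, TCF/LEF ATCAAAG, the E-box CACCTG bound by Zeb2, NFIL3 TTACNTAA, PRDM1 GTGAAAG and STAT TTCNNNGAA. The Runx3 window held RUNX letters at 2 places and the E-box at 1, and the Tbx21 window held the E-box at 1 place. The Eomes window held none of the letters. None of the printed matches overlapped another. Over all 32851 windows of this length in the table, 14.05% held the RUNX letters, 17.2% the E-box and 3.33% the T-box letters, so the E-box and RUNX letters are common. The other shares were 6.75% for AP-1, 3.21% for TCF/LEF, 2.06% for NFIL3, 3.57% for PRDM1 and 7.02% for STAT. Of the 10 genes, 9 had a window in the table, and Tox had none.

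The libraries held 16002949 to 31160790 estimated counts per tumor in responders (median 25627675) and 19863863 to 28276142 in non-responders (median 22757833). Levels are given as CPM (counts scaled to a common library size) after TMM scaling, so that tumors of different depth can be compared. At this depth Tox rested on 5 to 17 counts per tumor, Tbx21 on 15 to 84, Eomes on 31 to 157 and Batf on 41 to 121, and these values carry the largest counting error. The other 6 genes had at least 264 counts in every tumor. Zeb2 had 2665 to 4660 and Tcf7 had 1605 to 3650. All 10 genes passed the filter on low counts.

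Responder 5 had the lowest lymphocyte marker scores of the responders, though by Dixon's criterion no tumor was an outlier in its group. Its T cell marker score, the mean log2(CPM + 1) of 13 T cell genes, was 1.81, the lowest of the 10 tumors, while the other responders had 2.48 to 2.90. For the NK cell marker score responder 5 had 1.92, and responders 9 to 12 had 2.58 to 2.92. Its total count was the median of its group. The fold changes of the 10 genes are therefore given with and without this tumor. It was singled out for these low scores, so leaving it out raises the lymphocyte scores of responders by construction, and the values without it are given as a description of what rests on it. In bulk tissue, fewer cells of a type and less RNA per cell cannot be told apart.

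Means were higher in responders for 8 of the 10 genes and lower for 2, and no gene separated the groups. The median log2 fold change of responders over non-responders was 0.26 for the 10 genes and -0.0036 for all 15767 features tested. In edgeR's quasi-likelihood test, 4 of the 10 genes (Eomes, Runx3, Nfil3 and Id2) had an unadjusted p under 0.05 and a higher level in responders, where 4.20% of all features did. None of the 10 was lower at that threshold. Counted in either direction the 4 stand beside 8.21% of all features, and the 8 with a higher mean beside 48.6%. After Benjamini-Hochberg adjustment over all features, 0 of the 10 genes and 0.00% of the features tested had an adjusted p under 0.05, and the lowest adjusted p among the 10 was 0.580. DESeq2 and limma each had 3 of the 10 genes at an unadjusted p under 0.05, and none at an adjusted p under 0.05. Without responder 5, 5 of the 10 genes had an unadjusted p under 0.05, where 6.84% of features were higher at that threshold, and still none passed after adjustment. The count was 2 without non-responder 2, without responder 10 or without responder 12, and 1 without non-responder 7 or without responder 11. The background moved too. Features higher at that threshold numbered 663 with all tumors and 426 without non-responder 7. In either direction, 1294 features passed it with all tumors and 839 without responder 11. Of all features, 0.336% had every responder above every non-responder and 0.590% had every responder below every non-responder. None of the 10 genes did either.

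**Figure D1:**
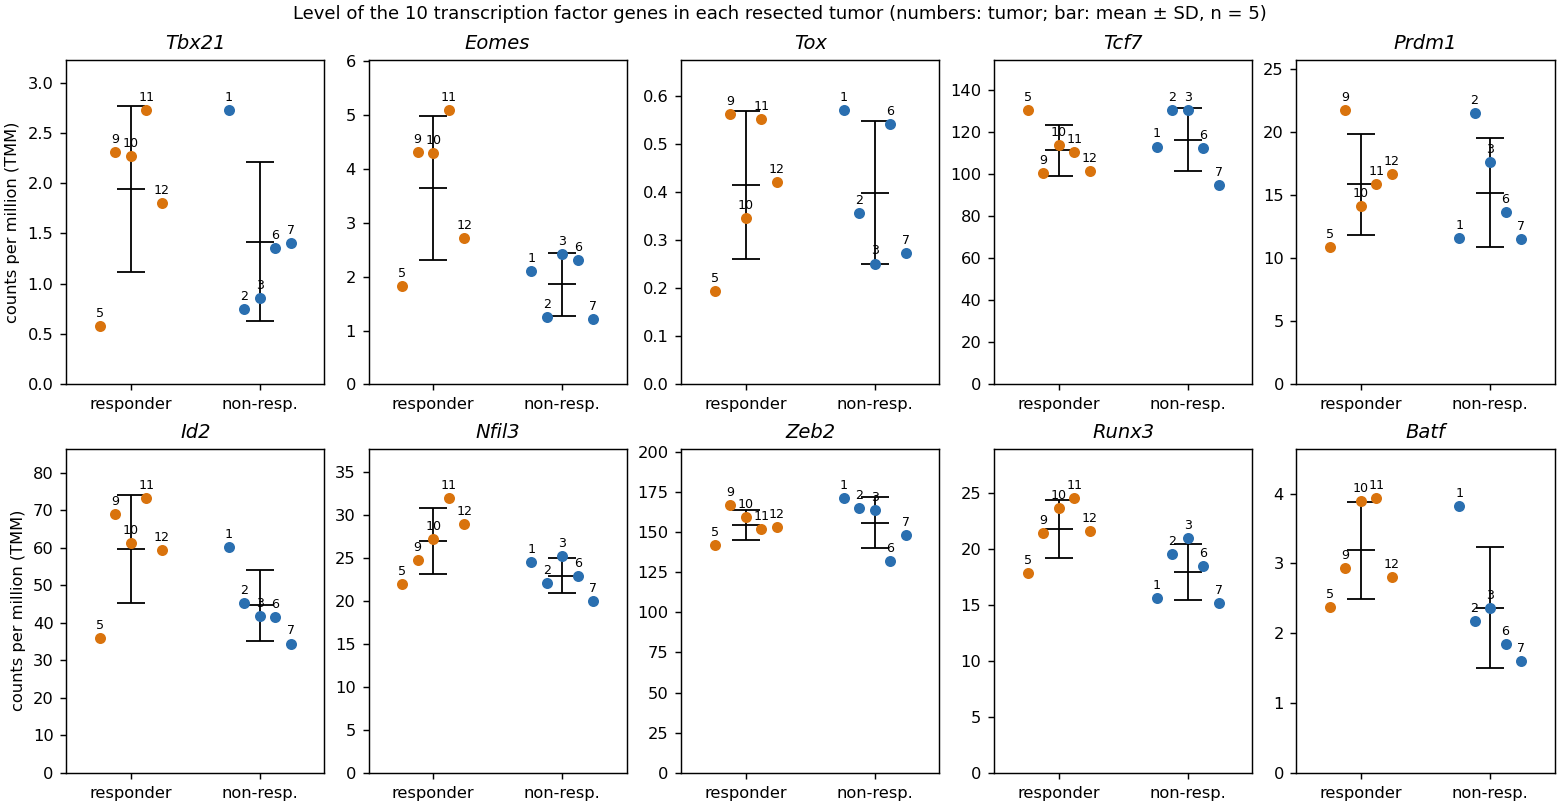
Level of each of the 10 genes in CPM (vertical axes, from 0) in the 5 responders (orange) and 5 non-responders (blue), with the tumor number above each point and bars for the mean ± SD. Eomes and Runx3 had 4 responders above every non-responder and responder 5 within the range of the non-responders. Tcf7, Zeb2 and Tox had no responder above the highest non-responder.

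Eomes differed most between the groups. Eomes lies on chr9:118478212-118486132 of GRCm38 and encodes the T-box factor that marks NK cells and cytotoxic memory T cells. Responders 5, 9, 10, 11 and 12 had 1.83, 4.32, 4.29, 5.11 and 2.72 CPM, and non-responders 1, 2, 3, 6 and 7 had 2.11, 1.25, 2.42, 2.30 and 1.21 CPM. Responders 9 to 12 lay above every non-responder, and responder 5 lay below 3 of them. The mean was 3.65 ± 1.34 CPM among responders and 1.86 ± 0.583 CPM among non-responders (SD over 5 tumors each). On the log2 scale the difference was 0.98 (standard error 0.29, 95% interval 0.36 to 1.61), with an adjusted p of 0.580 from edgeR's quasi-likelihood test. Without responder 5 it was 1.16 (standard error 0.24) with an adjusted p of 0.0779. Leaving out any other single tumor gave values down to 0.82, without responder 11.

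Tbx21, on chr11:97098071-97115331, encodes T-bet, the T-box factor of type 1 immunity, and it overlapped more than Eomes. The responders, in the same order, had 0.583, 2.31, 2.27, 2.73 and 1.80 CPM, and the non-responders had 2.73, 0.750, 0.856, 1.35 and 1.41 CPM. The highest and lowest values of all the tumors both fell in responders, 11 and 5, and non-responder 1 was as high as responder 11. The log2 difference was 0.45 (standard error 0.40, 95% interval -0.41 to 1.31; edgeR adjusted p = 0.788), and 0.69 without responder 5 (adjusted p = 0.370). Leaving out non-responder 1 gave the largest value, 0.82, and leaving out responder 11 the smallest, 0.27. The log2 ratio of Eomes to Tbx21 within a tumor, taken with 1 CPM added to each, was 0.41 to 0.84 in responders and -0.26 to 0.88 in non-responders. Its group means differed by 0.40 (two-sided exact permutation p = 0.111, adjusted p = 0.389 over 7 ratios by Benjamini-Hochberg). The ratio lay below 0 in non-responders 1 and 7 and in no other tumor. The difference ran from 0.26 without non-responder 1 to 0.55 without non-responder 3, which has the highest ratio of the non-responders (exact permutation p = 0.0238 for the latter, unadjusted, the only one of the 10 left-out tumors that gave an unadjusted p under 0.05).

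Runx3, on chr4:135120652-135177990, encodes a Runt domain factor that silences Cd4 and supports the cytotoxic program in CD8 T cells. Responders had 17.8, 21.4, 23.6, 24.5 and 21.6 CPM, and non-responders had 15.6, 19.5, 21.0, 18.5 and 15.2 CPM. Responders 9 to 12 lay above every non-responder by a small margin, and responder 5 lay among the non-responders. This came to a log2 fold change of 0.28 (standard error 0.11, 95% interval 0.05 to 0.51; edgeR adjusted p = 0.584), a 1.21-fold difference, and 0.35 without responder 5 (adjusted p = 0.148). Runx1, the family member used by many blood cells, had 109 ± 3.90 and 110 ± 8.58 CPM (SD over 5 tumors each). The log2 ratio of Runx3 to Runx1 was -2.27 ± 0.21 in responders and -2.56 ± 0.18 in non-responders (SD over 5 tumors each, exact permutation p = 0.0794, adjusted p = 0.389). With single tumors left out the difference ran from 0.23 to 0.37, with the larger values without responder 5 (0.37) and without non-responder 3 (0.36; exact permutation p = 0.0317 each, unadjusted). These 2 fits were picked from all those leaving out 1 tumor, and responder 5 was singled out for its low lymphocyte scores. Their p-values are therefore a description only.

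Id2, Nfil3 and Batf had a higher mean in responders as well. Id2, on chr12:25093799-25097140, encodes an inhibitor of E proteins that NK and innate lymphoid cells require. Its level in responders was 35.9, 68.9, 61.2, 73.3 and 59.4 CPM, and in non-responders 60.2, 45.2, 41.8, 41.6 and 34.5 CPM. Responders 9, 10 and 11 lay above every non-responder, non-responder 1 stood among the responders, and responder 5 stood among the lowest. The log2 fold change was 0.42 (standard error 0.18; edgeR adjusted p = 0.591), and 0.56 without responder 5 (adjusted p = 0.0990). Id3, which encodes a related inhibitor, had a log2 fold change of 0.18 (edgeR adjusted p = 0.782), and the log2 ratio of Id2 to Id3 differed by 0.25 (exact permutation p = 0.278, adjusted p = 0.648).

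Nfil3, on chr13:52967209-52981073, encodes a bZIP factor needed early in NK cell development. Responders had 21.9, 24.8, 27.1, 31.9 and 29.0 CPM, and non-responders had 24.6, 22.1, 25.2, 22.9 and 19.996 CPM. Responders 10, 11 and 12 lay above every non-responder. EdgeR gave a log2 fold change of 0.24 (standard error 0.10, 95% interval 0.03 to 0.45; edgeR adjusted p = 0.591), and 0.31 without responder 5 (adjusted p = 0.146). Batf, on chr12:85686669-85709087, measured 2.37, 2.94, 3.90, 3.94 and 2.80 CPM among responders and 3.83, 2.18, 2.37, 1.85 and 1.60 CPM among non-responders. Non-responder 1 stood among the highest responders, non-responder 3 was level with responder 5, the lowest responder, and the other non-responders lay below it. The log2 fold change of Batf was 0.44 (standard error 0.23, 95% interval -0.06 to 0.94; edgeR adjusted p = 0.649). It was 0.68 without non-responder 1 and 0.53 without responder 5 (adjusted p = 0.317 and 0.344), and lowest, 0.32, without non-responder 7. Batf3, the AP-1 factor of cross-presenting dendritic cells, had 0.60 (adjusted p = 0.586), and the log2 ratio of Batf to Batf3 differed by -0.06 (exact permutation p = 0.532, adjusted p = 0.744).

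The estimated log2 fold changes of the genes of memory, exhaustion and terminal differentiation were small, though the interval of Tox was wide. Tcf7, on chr11:52252371-52283014, measured 130, 100, 114, 110 and 101 CPM among responders and 113, 130, 130, 112 and 94.8 CPM among non-responders. Responder 5 and non-responders 2 and 3 were the highest and shared almost the same level. EdgeR gave a log2 fold change of -0.06 (standard error 0.09, 95% interval -0.26 to 0.14; edgeR adjusted p = 0.883), and -0.12 without responder 5 (adjusted p = 0.579). Lef1, which encodes the closest relative of TCF-1, had 11.7 ± 2.21 and 13.98 ± 4.02 CPM (SD over 5 tumors each), a log2 fold change of -0.25 (adjusted p = 0.728). With tumors left out in turn that fold change ran from -0.37 to -0.080. Across the 10 tumors Tcf7 and Lef1 had a Pearson's r of 0.796 and a Spearman's rho of 0.745, and r was 0.671 without responder 5 and non-responder 2. These are given as a description with no test, since the pair was chosen after seeing its values.

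Tox, on chr4:6686353-6991557, was the lowest of the 10 genes, with 0.194 to 0.563 CPM among responders and 0.252 to 0.572 CPM in non-responders. The interval of its log2 fold change ran from -0.71 to 0.81, so its direction was not settled, and the value without responder 5 was 0.24 (adjusted p = 0.804). Tox2 did not pass the filter, with 1 to 6 counts per tumor. The log2 ratio of Tcf7 to Tox differed by -0.08 (exact permutation p = 0.667, adjusted p = 0.746). Prdm1, on chr10:44437177-44528501, had 10.9 to 21.8 CPM among responders and 11.5 to 21.5 CPM in non-responders, with the highest values in responder 9 and non-responder 2. Its log2 fold change was 0.05 (standard error 0.20; edgeR adjusted p = 0.967), and 0.16 without responder 5 (adjusted p = 0.760). Its counterpart Bcl6, which opposes Blimp-1 in B and T cells, had 0.12 (adjusted p = 0.760), and their log2 ratio differed by -0.06 (exact permutation p = 0.746, adjusted p = 0.746). Zeb2, on chr2:44983632-45117395, varied least of the 10 genes, with a coefficient of variation of 7.96% over the tumors, where Eomes had 49.2%. It had 142 to 167 CPM among responders and 132 to 171 CPM in non-responders, and a log2 fold change of -0.01 (95% interval -0.16 to 0.14; edgeR adjusted p = 0.977), which was 0.019 without responder 5 (adjusted p = 0.940). The log2 ratio of Zeb2 to its relative Zeb1 differed by -0.04 (exact permutation p = 0.389, adjusted p = 0.681).

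**Figure D2:**
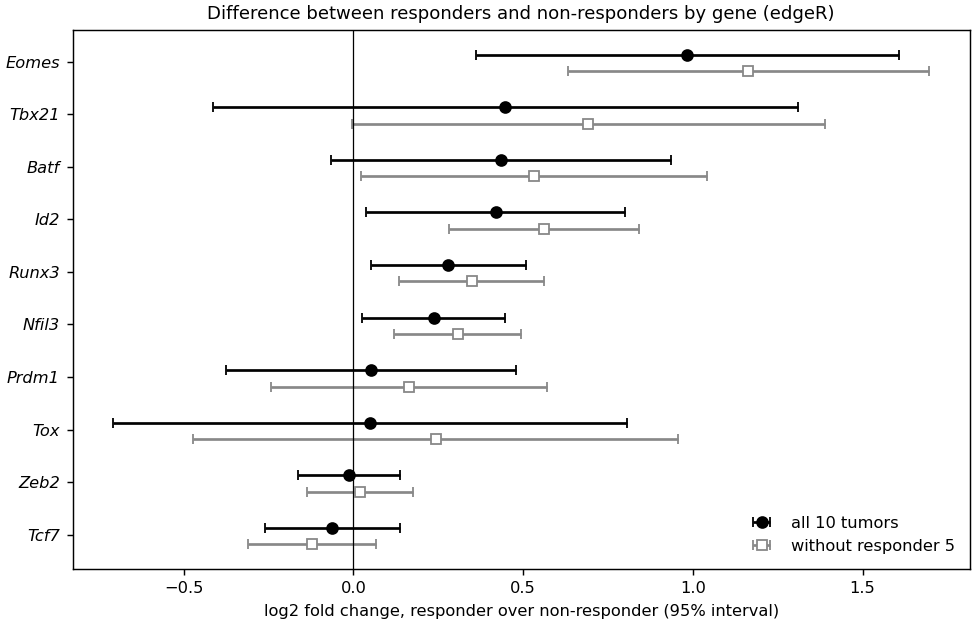
Log2 fold change of responders over non-responders from edgeR (horizontal axis) with its 95% interval, for all 10 tumors (black) and without responder 5 (grey), the genes in order of size. With all tumors, the interval lay above 0 for Eomes, Id2, Runx3 and Nfil3, and Zeb2 and Tcf7 lay close to 0 with narrow intervals.

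Genes for antisense RNAs overlap 5 of the 10 genes: Gm33460 overlaps Eomes, Gm11802 Tox, A630014C17Rik Tcf7, Zeb2os Zeb2 and Gm16224 Runx3. Gm26551 also overlaps Tcf7, on the same strand. No source states whether the libraries keep strand, so reads of these partners may not be told apart. In GENCODE vM21 no gene overlaps Tbx21, Prdm1, Id2, Nfil3 or Batf.

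The levels of the 10 genes spanned a wide range once divided by length. In CPM per kilobase of annotated exon, over all 10 tumors, Tcf7 had 43.3 ± 4.99, Id2 21.4 ± 5.75 and Nfil3 12.3 ± 1.77 (SD, n = 10). Zeb2 had 7.78 ± 0.619, Runx3 3.97 ± 0.627, Prdm1 2.78 ± 0.704 and Batf 1.98 ± 0.612 (SD, n = 10). The T-box genes were near the bottom, at 0.675 ± 0.325 for Tbx21 and 0.663 ± 0.327 for Eomes, and Tox was last at 0.0535 ± 0.0188 (SD, n = 10). The order held in all 10 tumors for each neighbouring pair except Prdm1 over Batf, which held in 8, and Tbx21 over Eomes, which held in 4, so the order of the T-box genes was not settled. The ranges of Id2 and Nfil3, of Runx3 and Prdm1, of Prdm1 and Batf, and of Tbx21 and Eomes overlapped. Dividing by the longest annotated transcript in place of all exons put Zeb2 at 17.0, above Nfil3, since its 29 annotated transcripts cover 19942 bases of exon and the longest has 9124.

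Lymphocyte genes give a scale for these levels. Cd3e, a chain of the T cell receptor complex, had 0.849 CPM per kilobase, Ncr1, the NK receptor NKp46, had 2.71, and Csf1r, the macrophage growth factor receptor, had 30.1. Tbx21 and Eomes lay at 0.796 and 0.782 times the level of Cd3e, and at 0.497 and 0.570 times with the longest transcript. Tcf7 lay at 51.0 times the level of Cd3e (33.9 times with the longest transcript) and at 1.44 times that of Csf1r (1.24 times). Id2 lay at 25.2 times the level of Cd3e (19.5 times) and Nfil3 at 14.5 times (9.07 times). Tox lay at 0.0631 times the level of Cd3e (0.0758 times). Which cells of the tumor carried these RNAs was not tested.

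**Figure D3:**
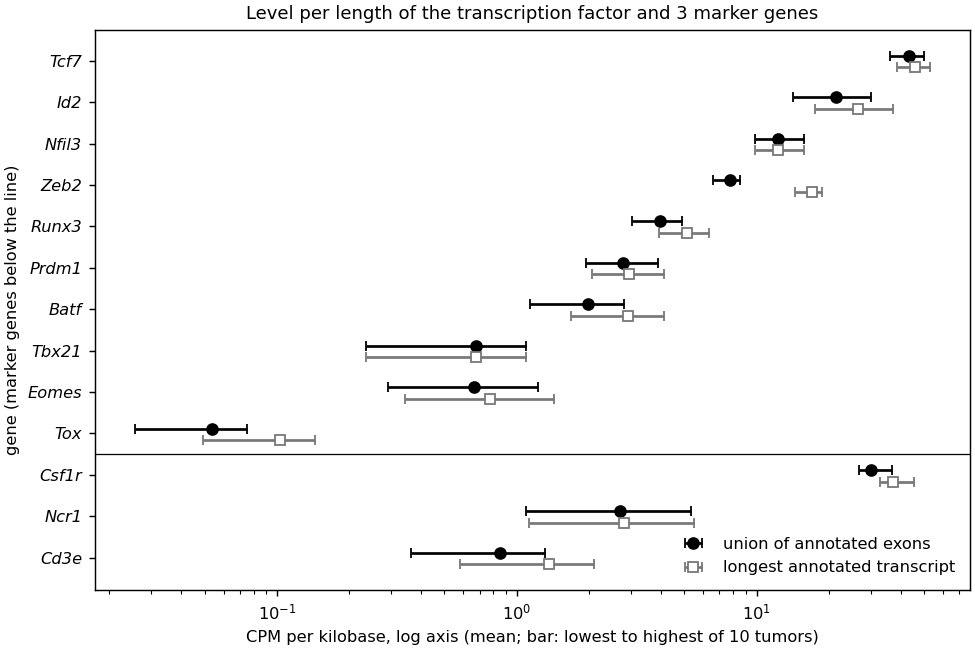
Level of the 10 genes and 3 marker genes in CPM per kilobase (log axis), as the mean of the 10 tumors with bars from the lowest to the highest tumor, for all annotated exons (black) and for the longest transcript (grey). Tcf7 stood at 43.3 and Tox at 0.0535 CPM per kilobase of exon, and Tbx21 and Eomes stood below the T cell gene Cd3e, at 0.796 and 0.782 times its level by exons and 0.497 and 0.570 times by the longest transcript.

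Marker scores of 4 cell types were compared between the groups. The NK cell marker score was 2.57 ± 0.38 among responders and 2.14 ± 0.26 among non-responders (SD over 5 tumors each, two-sided exact permutation p = 0.0873, adjusted p = 0.302 over 4 scores). The T cell marker score was 2.51 ± 0.42 and 2.23 ± 0.28 (SD over 5 tumors each, exact permutation p = 0.238, adjusted p = 0.317). The macrophage and monocyte score was 6.93 ± 0.11 and 6.80 ± 0.14 (SD over 5 tumors each, exact permutation p = 0.151, adjusted p = 0.302), and the fibrosarcoma and fibroblast score was 8.38 ± 0.06 and 8.43 ± 0.10 (SD over 5 tumors each, exact permutation p = 0.357, adjusted p = 0.357). None of the 4 scores passed, and 5 tumors against 5 can give no p below 0.00794. Without responder 5 the NK cell difference was 0.59 and the T cell difference 0.46, given with no test because the tumor was chosen on these scores.

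Of 16 NK cell markers, 14 passed the filter, all 14 with a higher mean in responders, and 10 of them had an unadjusted p under 0.05 in edgeR's test. Their median log2 fold change was 0.75. For this list and those below, 4.20% of all features were higher in responders at that threshold, and 48.6% had a log2 fold change above 0. In either direction 8.21% of all features passed it, a share to set beside the counts of lower genes. With tumors left out in turn, the features higher at that threshold numbered 426 to 1074, against 663 with all tumors. Without responder 5 all 14 markers had an unadjusted p under 0.05, where 6.84% of features were higher at that threshold. That count is raised by construction, since the tumor was chosen on its NK and T cell scores, and is a description only. Counts without responder 5 in the lists below are likewise a description only. The count fell to 3 without responder 11, 5 without non-responder 2 or 7, and 6 without responder 10 or with limma. Tyrobp, the signaling adapter that myeloid cells also express, was the most abundant at 69.9 CPM, and Klra8 was at 0 counts in every tumor. The markers other than Tyrobp summed to 41.1, 94.4, 95.4, 128 and 87.1 CPM in responders and to 74.3, 37.3, 55.3, 61.9 and 44.5 CPM in non-responders. Responders 9 to 12 had the highest sums, and responder 5 had more than non-responder 2 and less than the other non-responders. Ncr1 had a log2 fold change of 0.88, Klrb1c, the NK1.1 gene, 0.89, Klrd1, the CD94 gene, 0.75 and Klre1 0.41, with adjusted p from 0.580 to 0.680.

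Of 15 T cell markers, 13 were found and passed, all 13 with a higher mean in responders and 1, Lck, with an unadjusted p under 0.05, at a median log2 fold change of 0.50. The count was 9 without responder 5, which is raised by construction since that tumor was chosen on its NK and T cell scores. It was 6 without non-responder 1, and 0 without responder 10 or 11 or non-responder 2, 3 or 7. The T cell markers summed to 44.1, 81.6, 84.0, 96.1 and 67.6 CPM in responders and to 78.3, 46.1, 55.4, 61.7 and 52.9 CPM in non-responders, and Trbc2 was the most abundant at 16.1 CPM. The sum was lowest in responder 5 and highest in responder 11, the tumors at the ends of the Tbx21 values. Cd3e had a log2 fold change of 0.33, Cd3g 0.54, Cd4 0.61 and Cd8a 0.13, with adjusted p from 0.623 to 0.922. How far these markers account for the differences in the 10 genes was not tested.

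Across the 10 tumors, the T-box factors and the NK and T cell scores rose together. The relation of each gene to each of the 4 scores was computed, 40 relations in all, as correlations of log2(CPM + 1). Tbx21 followed the T cell score most closely (Pearson's r = 0.962, permutation p = 4e-05, adjusted p = 0.0016; Spearman's rho = 0.915, permutation p = 0.00056, adjusted p = 0.0114). The median score was farthest from responder 5 and non-responder 2, and without both of them r was 0.920 (permutation p = 0.00176). Eomes followed the NK cell score most closely (Pearson's r = 0.936, permutation p = 0.00015, adjusted p = 0.003; Spearman's rho = 0.915, permutation p = 0.00057, adjusted p = 0.0114). Without responder 11 and non-responder 2 its r was 0.885 (permutation p = 0.0037). On deviations from the group means, r was 0.961 for Tbx21 (permutation p = 3e-05) and 0.906 for Eomes (permutation p = 0.00042). Within the groups the relation was thus as close for Tbx21 and slightly less close for Eomes.

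Id2 followed the NK cell score (r = 0.890, permutation p = 0.00104, adjusted p = 0.0119; rho = 0.842, permutation p = 0.00338, adjusted p = 0.0193; r = 0.951 without the same 2 tumors). It followed the T cell score as well (r = 0.884, permutation p = 0.00152, adjusted p = 0.0119; rho = 0.879, permutation p = 0.00148, adjusted p = 0.013; r = 0.941 without responder 5 and non-responder 2). In all, 5 of the 10 genes had an adjusted p under 0.05 by Pearson's r with the NK cell score (Eomes, Id2, Tbx21, Nfil3 and Batf), and the same 5 and Tox with the T cell score. Without responder 11, at the high end of each of these scores, 1 gene passed with the NK cell score (Eomes, r = 0.912, adjusted permutation p = 0.012) and 1 with the T cell score (Tbx21, r = 0.959, adjusted permutation p = 0.0076). Other relations stayed close without it but missed the threshold, with r = 0.855 for Id2 and 0.832 for Tbx21 with the NK cell score and 0.847 for Id2 with the T cell score (adjusted permutation p = 0.0557 each). For Batf r was then 0.673 and 0.697 with the NK and T cell scores (adjusted permutation p = 0.153 and 0.137). Of 10 fits that each left out 1 tumor, Eomes with the NK cell score and Tbx21 with the T cell score passed in all 10. Tbx21, Id2 and Nfil3 with the NK cell score, and Eomes and Id2 with the T cell score, missed the threshold in 1, without responder 11. Batf missed it in 8 with the NK cell score and in 7 with the T cell score, and with the T cell score Tox missed it in 7 and Nfil3 in 4. For Tox the rank correlation did not pass (rho = 0.661, permutation p = 0.0443, adjusted p = 0.0984). Batf had its highest r with the macrophage and monocyte score (r = 0.854, permutation p = 0.00179, adjusted p = 0.0119; rho = 0.891, permutation p = 0.00101, adjusted p = 0.013; r = 0.884 without responder 11 and non-responder 2).

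With that macrophage score 5 genes passed by Pearson's r, but the scores were themselves related: r was 0.955 between the NK and T cell scores, 0.855 between NK and macrophage and 0.820 between T and macrophage (adjusted permutation p = 0.00024, 0.00549 and 0.0074 over 6 relations). The 5 genes were Eomes, Batf, Nfil3, Id2 and Tbx21. Eomes had r = 0.861 with the macrophage score (permutation p = 0.00171, adjusted p = 0.0119). Without responder 11 and non-responder 2 its r was 0.732 (permutation p = 0.0399) and its rho 0.571 (permutation p = 0.151). Tbx21 no longer followed the macrophage score without those tumors (r = 0.547, permutation p = 0.161, from 0.720 with all tumors, permutation p = 0.0188). The count of 5 was 3 without responder 9 or non-responder 7, 2 without responder 10 and 0 without responder 11. With the fibrosarcoma and fibroblast score none of the 10 genes passed, and r lay from -0.531 for Zeb2 to 0.316 for Tox.

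Tcf7 had a negative r with the T cell score (-0.516, permutation p = 0.13, adjusted p = 0.229; rho = -0.358, permutation p = 0.314), which came to -0.0577 without responder 5 and non-responder 2 (permutation p = 0.895). Its r with the NK cell score was -0.456 (permutation p = 0.185, adjusted p = 0.297). Zeb2, Prdm1 and Runx3 did not pass with any score. For Runx3 the value nearest to passing was with the NK cell score (r = 0.644, permutation p = 0.0478, adjusted p = 0.106; rho = 0.709, permutation p = 0.0269, adjusted p = 0.0672).

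**Figure D4:**
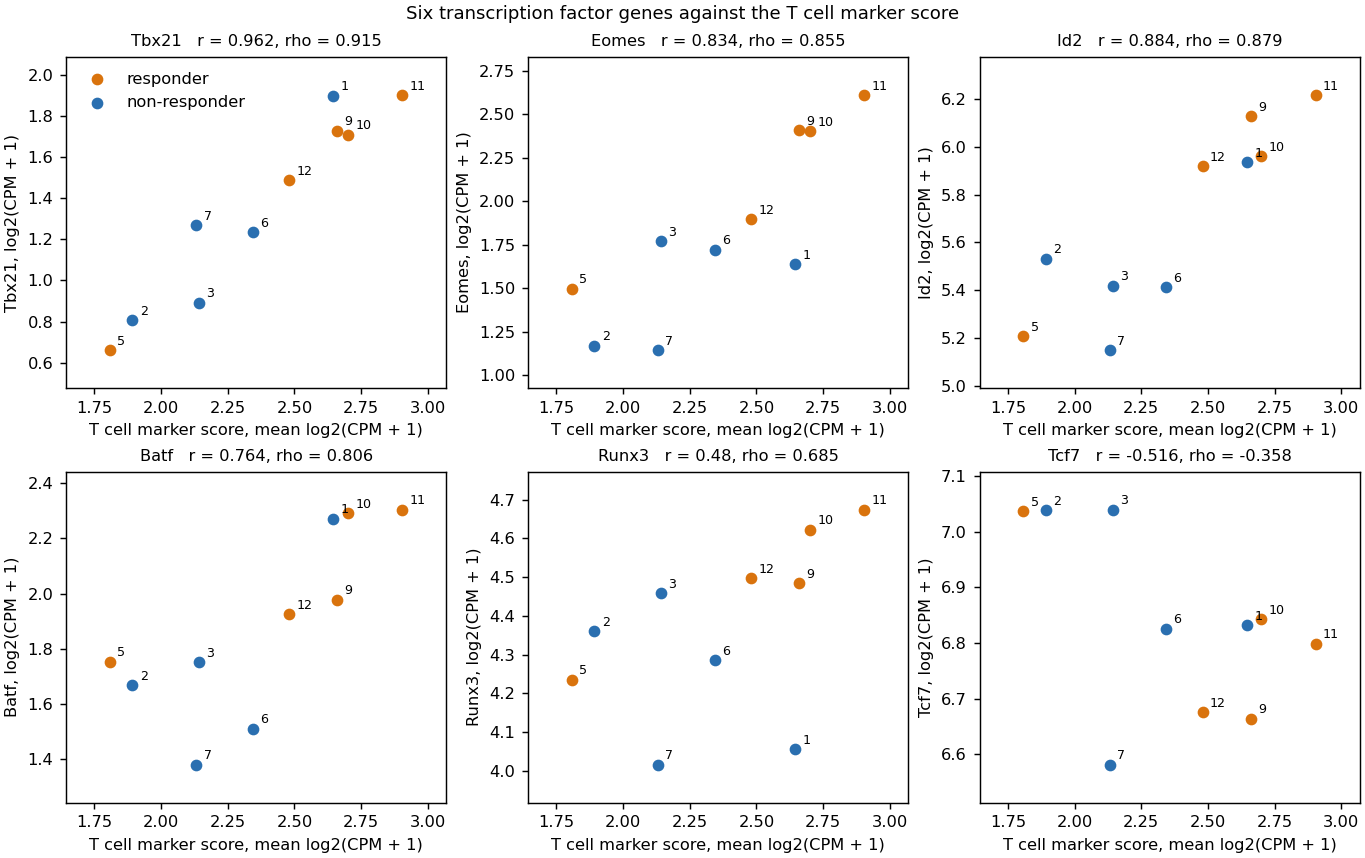
Log2(CPM + 1) of 6 of the genes (vertical axes) against the T cell marker score, the mean log2(CPM + 1) of 13 T cell genes (horizontal axes), in responders (orange) and non-responders (blue), with tumor numbers. Tbx21 lay close to a line (r = 0.962) with responder 5 at its low end, and Tcf7 was high in the 2 tumors of lowest score, responder 5 and non-responder 2, but lowest in non-responder 7, the next (r = -0.516).

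Among the 10 genes themselves, 39 of the 45 pairs had a positive r, and all 6 negative pairs held Tcf7. After adjustment over the 45 pairs, 7 pairs passed by Pearson's r and 5 by Spearman's rho. The 7 pairs were Id2 with Batf (r = 0.857), Tbx21 with Id2 (0.836), Eomes with Nfil3 (0.825), Eomes with Id2 (0.823), Id2 with Nfil3 (0.818), Nfil3 with Runx3 (0.799) and Eomes with Runx3 (0.799), each with an adjusted permutation p of 0.0424. Without the tumors farthest from the median of a pair's first gene, r fell most for Nfil3 with Runx3, to 0.584 (permutation p = 0.13), and it was 0.827 for Eomes with Nfil3 (permutation p = 0.0121). Responder 11 had the highest level of 6 genes (Tbx21, Eomes, Id2, Nfil3, Runx3 and Batf), and non-responder 7 the lowest level of 6 (Eomes, Tcf7, Id2, Nfil3, Runx3 and Batf).

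**Figure D5:**
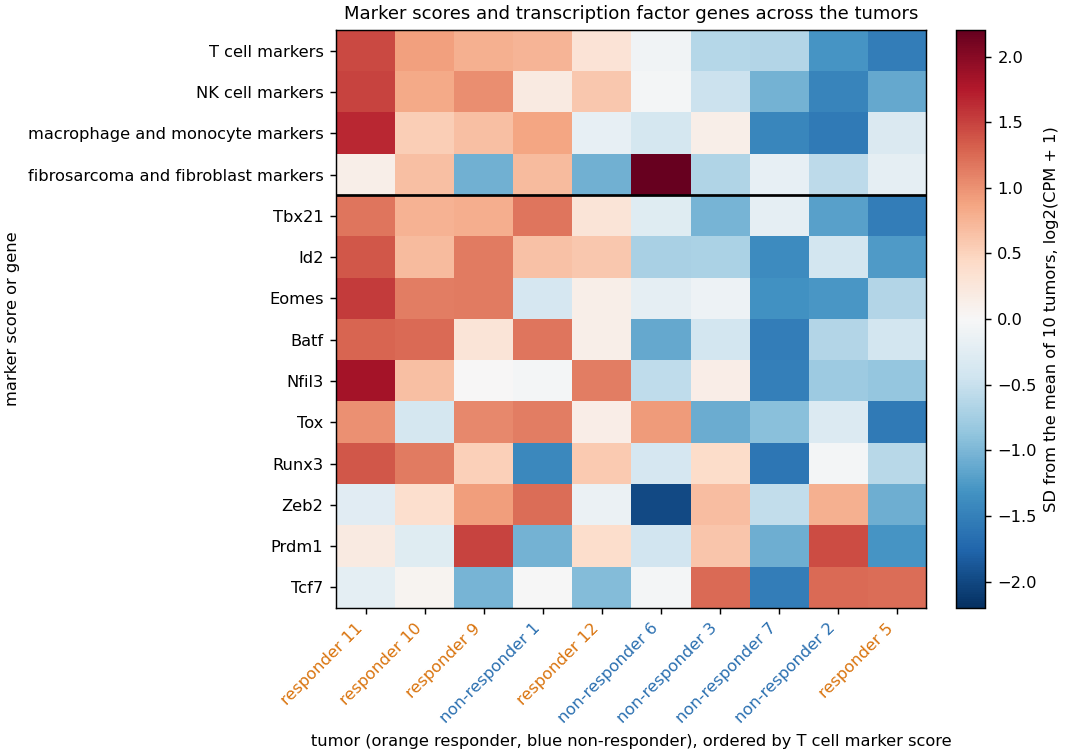
Marker scores (above the line) and the 10 genes (below) in each tumor, as SD from the mean of the 10 tumors on the log2(CPM + 1) scale (color bar), with tumors ordered by T cell marker score from responder 11 to responder 5. Tbx21, Id2 and Eomes shared the gradient of the lymphocyte scores, and Prdm1, Zeb2 and Tcf7 did not.

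The genes whose levels across the tumors were most like each of the 10 were found among 13057 genes with a mean of at least 1 CPM. With that many genes and 10 tumors, r is given as a description. For Tbx21 they were S1pr4, a sphingosine receptor (r = 0.983), Il18r1, a chain of the IL-18 receptor (0.973), and Cd4 (0.968). For Eomes they included Ltb4r1, a leukotriene receptor (0.975), and Gzmb, the granzyme B gene (0.953). For Id2 they were Plxdc2 (0.973), Il12rb2 (0.972) and the granzyme gene Gzmg (0.969), and for Batf Elmo2 (0.968) and the cytokine receptor genes Csf2rb (0.953) and Csf2rb2 (0.952), which are close paralogs whose counts may be shared.

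For Tcf7 the nearest genes were Clip2 (0.960), Amotl2 (0.956) and Tnfrsf21 (0.951), and for Zeb2 they were Ctnnb1, the beta-catenin gene (0.935), Pofut1 (0.920) and Thbd (0.911). Nfil3 was nearest to Tma7 (0.973), Acsl1 (0.948) and Ripk2 (0.943), and Runx3 to Prdx5 (0.920), Zdhhc12 (0.919) and Arid3b (0.915). Prdm1 was nearest to Gde1 (0.960), Rusc2 (0.953) and Paip2 (0.940). Tox was nearest to Llgl2 (0.950), Degs1 (0.925) and Pecam1 (0.905). An r over 0.8 was reached by 453 genes for Id2 and 429 for Eomes, but by 50 for Tox and 72 for Zeb2.

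T-box targets and cytotoxic effector genes, taken as 1 list, had mostly higher means in responders. Of 20 T-box targets and cytotoxic effector genes, all passed the filter, 18 had a higher mean in responders, and 17 had an unadjusted p under 0.05 in that direction, where 4.20% of all features did. The list's median log2 fold change was 0.84. A single gene, Cx3cr1, had an unadjusted p under 0.05 in the other direction, and none of the 20 had an adjusted p under 0.05. The count in that direction was 0 without responder 9, 10 or 11 or without non-responder 3. The count of higher genes was 18 without responder 5 or without non-responder 1, and lowest, 12, without responder 11. Without responder 5, 2 genes, Gzmb and Klrg1, had an adjusted p under 0.05, and no other single tumor left out gave any. The values without responder 5 are a description only, since that tumor was chosen on its NK and T cell scores. Limma also had 12. Il2rb, a shared chain of the IL-2 and IL-15 receptors, measured 42.2 ± 18.5 CPM among responders and 22.6 ± 6.99 CPM among non-responders (SD over 5 tumors each), a log2 fold change of 0.91 (edgeR adjusted p = 0.580). Nkg7, which encodes a granule membrane protein, had a log2 fold change of 1.06, Il12rb2, a chain of the IL-12 receptor, 0.93, the chemokine receptor gene Cxcr3 0.77, and the cathepsin gene Ctsw 0.63 (adjusted p from 0.580 to 0.591).

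The 2 genes of that list with a lower mean in responders were Cx3cr1 and S1pr5. S1pr5, a T-bet target by which NK cells leave tissue, had 0.753 ± 0.28 and 0.787 ± 0.20 CPM (SD over 5 tumors each) and a log2 fold change of -0.09 (edgeR adjusted p = 0.956). Il18rap, a chain of the IL-18 receptor, was the most abundant of the list, with 244 ± 18.2 and 209 ± 17.5 CPM (SD over 5 tumors each) and a log2 fold change of 0.23 (adjusted p = 0.580). Il2rb and other genes stand in more than 1 of the lists described here, and the lists were chosen with earlier results of these tumors known.

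Upstream of the factors, 20 of 22 genes for cytokines, their receptors and signal transducers passed. Of these 18 had a higher mean in responders, 11 had an unadjusted p under 0.05 in that direction and 0 in the other, and the median log2 fold change was 0.35. The 11 fell to 7 without responder 9 or 11 or non-responder 2 or 7. Stat4, the IL-12 signal transducer, had 4.36 ± 1.04 and 2.85 ± 0.73 CPM (SD over 5 tumors each), a log2 fold change of 0.61 (edgeR adjusted p = 0.580). Il12rb1 had 0.36, Il15ra 0.32, Il18r1 0.45 and Il21r 0.34, while the cytokine gene Il15 itself had 0.16 (adjusted p from 0.591 to 0.816).

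Of 40 other lymphocyte transcription factor genes, 39 were found and 38 passed. Of these 23 had a higher mean in responders and 15 a lower mean, and the median log2 fold change was 0.03. At an unadjusted p under 0.05, 5 were higher (Batf3, Batf2, Zbtb32, Satb1 and Stat4) and 1 was lower (Cbfb, the partner of the RUNX proteins). The 5 came to 10 without responder 5 and to 2 without responder 11 or non-responder 2 or 7. The count of lower genes was 0 without responder 9 or 10 or non-responder 6, and 2 without non-responder 3. Bach2, which holds T cells in a memory state, had a log2 fold change of -0.12, and Ikzf3, the Aiolos gene, 0.51 (edgeR adjusted p = 0.811 and 0.680).

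Of 11 activation and exhaustion receptor genes, 10 passed, all with a higher mean in responders, and 2 (Tigit and Tnfrsf9) had an unadjusted p under 0.05. The median was 0.32. The 2 came to 7 without responder 5 or without non-responder 1, and to 1 without responder 9 or 11 or non-responder 2 or 6. Tnfrsf9, the 4-1BB gene, had 58.6 ± 17.2 and 39.0 ± 4.35 CPM (SD over 5 tumors each), a log2 fold change of 0.59 (edgeR adjusted p = 0.580), and 0.75 without responder 5 (adjusted p = 0.0302). Havcr2 had 0.16, Lag3 0.34 and Tigit 0.30 (adjusted p = 0.708, 0.745 and 0.601). The values of Tnfrsf9 and of the count without responder 5 are a description only, since that tumor was chosen on its NK and T cell scores. In that fit 6.84% of all features were higher at an unadjusted p under 0.05. Of 12 naive and memory genes, 11 passed, 6 with a higher and 5 with a lower mean, and 1 (Il7r, log2 fold change 0.47, adjusted p = 0.580) had an unadjusted p under 0.05. Their median was 0.05, and 4 had an unadjusted p under 0.05 without responder 5 or without non-responder 1. With tumors left out in turn that median ran from -0.032 to 0.12, so its direction was not settled. Ccr7 had -0.01, S1pr1 -0.11 and Slamf6 0.50 (adjusted p = 0.995, 0.762 and 0.619).

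Among markers of other cells, 2 of 7 innate lymphoid cell genes that passed, of 8 listed, had an unadjusted p under 0.05 (Il7r and Klrg1), both higher in responders, and the count was 4 without non-responder 1 and 3 without responder 9. Il23r, the gene of an IL-23 receptor chain, did not pass, with 0 to 6 counts. Of 10 B and plasma cell genes 6 passed, none at an unadjusted p under 0.05. At that threshold 1 was higher without non-responder 1, and 1 was lower without non-responder 2 or 3. Cd79a and Jchain had log2 fold changes of -0.53 and 0.04 (adjusted p = 0.617 and 0.994). Of 13 macrophage and monocyte genes, all passed, 11 with a higher mean in responders, and Ly6c2 was higher and Ccr2 lower at an unadjusted p under 0.05. The count of higher macrophage genes was 4 without non-responder 1 or responder 5, and that of lower ones was 0 with limma and without any tumor other than non-responders 1 and 2. Adgre1 had 0.08, Csf1r 0.15, C1qa 0.14 and Lyz2, the most abundant at 984 CPM, 0.10 (adjusted p from 0.623 to 0.855). Of 10 dendritic cell genes, all passed, and 1 (Batf3) had an unadjusted p under 0.05, a count that was 0 without responder 11 or non-responder 2 or 7. Flt3 had -0.04, Xcr1 -0.01 and Clec9a 0.06 (adjusted p from 0.926 to 0.999). Of 10 granulocyte genes 7 passed, all 7 with a higher mean in responders, and 1 (Csf3r, 0.61, adjusted p = 0.586) had an unadjusted p under 0.05. S100a8 had 0.48 (adjusted p = 0.754), and ran from 0.21 to 0.87 with tumors left out in turn. The granulocyte count was 5 without non-responder 1 (median log2 fold change 0.85, from 0.48), 3 without responder 5 or with limma, 2 without responder 9 or with DESeq2, and 0 without responder 11 or non-responder 2.

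The tissue labelled fibrosarcoma carried its markers at high levels. Vim, the intermediate filament of mesenchymal cells, had 4764 CPM, the highest of 13 fibrosarcoma and fibroblast genes, of which 9 had a lower mean in responders. Col1a1, Col3a1 and Col5a1 were lower at an unadjusted p under 0.05, with 921 ± 88.5 and 1115 ± 133 CPM for Col1a1 (SD over 5 tumors each), a log2 fold change of -0.28 (edgeR adjusted p = 0.580). Vim had 0.06 and Pdgfrb -0.21 (adjusted p = 0.850 and 0.607). The 3 came to 5 without responder 5, without non-responder 7 or with DESeq2. For this list and the next ones, 8.21% of all features passed that threshold in either direction, and 4.20% passed it higher in responders. With tumors left out in turn, the features passing in either direction numbered 839 to 2139, against 1294 with all tumors. Of 6 endothelial genes 5 had a lower mean in responders, 2 of them (Cdh5 and Kdr) at an unadjusted p under 0.05, and Pecam1 had 0.09 (adjusted p = 0.751). The endothelial count was 1 without responder 11 or 12 or non-responder 1 or 6. All 6 skeletal muscle genes had a lower mean in responders, 2 of them (Ckm and Myh4) at an unadjusted p under 0.05, with -0.75 for Ckm (adjusted p = 0.591). The muscle count was 0 without non-responder 1 or 7 or responder 9, 10 or 12, and 4 without responder 11, where the median log2 fold change was -0.71 in place of -0.40. The 5 adipocyte genes had a lower mean in responders too, 1 (Lep) at an unadjusted p under 0.05, with -0.40 for Adipoq (adjusted p = 0.866), and the count was 0 without non-responder 1, 6 or 7. Adipoq itself ran from -0.78 without responder 10 to -0.068 without responder 11. Of 6 keratinocyte and epithelial genes 2 passed, and Krt14 had 1 to 7 counts. The part of these tissues in the differences of the 10 genes was not tested.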

How the data were processed

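Polyadenylated RNA from 10 resected WEHI 164 tumors was sequenced as paired 150 bp reads. The authors quantified transcripts with Kallisto and brought them to gene level with tximport, on mm10 (GRCm38). The deposited values are expected counts per gene, not normalized. The annotation release is not given in the sources used here. Of 36009 rows, 9580 carried no gene name and held 1.20% to 1.49% of the counts of a tumor; they were kept as features, rows of the same name were summed (44 names), and values were rounded. Features above the CPM minimum of the study's methods in at least 3 tumors were tested (15767). The groups were compared by the quasi-likelihood test of edgeR 4.0.16 under R 4.3.3, with TMM scaling and Benjamini-Hochberg adjustment over all features (threshold 0.05). DESeq2 1.42.0 and limma 3.58.1 served as alternatives, and the fit was checked on simulated data. The common biological coefficient of variation was 10.4%, and counting error adds to it in genes of few counts.

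Marker scores are means of log2(CPM + 1) without the 10 genes. Ratios and scores were tested with exact two-sided permutation tests over 252 assignments, and correlations with 100000 resamples in Python 3.11.15. Exon lengths and positions are from GENCODE vM21, and promoter windows from RefSeq. The 10 genes, 17 further lists, 7 ratios and the named genes (chosen per list, plus the 3 genes of highest r for each of the 10) were chosen with earlier results of these data known; 3 named genes are not reported here. Alternatives were other scalings, filters, tests, pseudocounts and lengths, unnamed features left out, and each tumor left out in turn.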

Additional observations from a re-analysis of the deposited data

Results flagged for a closer look

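No tumor stood apart from the other tumors of its group by Dixon's criterion in 42 group values (the 10 genes, 7 ratios and 4 scores in each group), where chance gives about 2.1.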

How the results depend on the processing

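No paired analysis was possible because the tumor numbers are unique across the groups. The direction for Tbx21, Eomes, Tcf7, Id2, Nfil3, Runx3 and Batf was the same in all 18 alternatives to the edgeR fit. With tumors left out in turn, the log2 fold change of Tox ran from -0.11 to 0.24, of Prdm1 from -0.074 to 0.22 and of Zeb2 from -0.064 to 0.022, so their direction was not settled. Leaving out a tumor also turned the sign for Runx1 (-0.049 to 0.023), S1pr5 (-0.27 to 0.061), Ccr7 (-0.19 to 0.12), Cd8a (-0.026 to 0.38), Jchain (-0.70 to 0.32), Flt3 (-0.17 to 0.12), Xcr1 (-0.28 to 0.13) and Clec9a (-0.0075 to 0.10). Limma turned the sign for Jchain (-0.24) and Flt3 (0.0016), and leaving out unnamed features that for Xcr1 (0.00043). DESeq2 had 1 feature at an adjusted p under 0.05 (Col6a2), where edgeR had 0. With tumors left out in turn the count was 0 to 9, the features at an unadjusted p under 0.05 numbered 839 to 2139, those of them higher in responders 426 to 1074, and the 10 genes at that threshold gave a count of 1 to 5. The difference in log2 ratio then ran from 0.26 to 0.55 for Eomes/Tbx21, 0.23 to 0.37 for Runx3/Runx1, -0.16 to 0.025 for Prdm1/Bcl6 and -0.19 to 0.0067 for Tcf7/Tox, and the difference in marker score from 0.34 to 0.59 for NK cells and 0.18 to 0.46 for T cells. The cause of these shifts was not tested.

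The genes past an adjusted p by Pearson's r numbered 1 to 6 with the NK cell score, 1 to 6 with the T cell score and 0 to 5 with the macrophage score when a tumor was left out. A pseudocount of 0.1 took Batf below the threshold with the NK and T cell scores (r = 0.718 and 0.736) and Tbx21 with the macrophage score (r = 0.685). Per kilobase of the longest transcript, Tox had 0.103, Zeb2 17.0, Runx3 5.12 and Batf 2.91 CPM, since that length is shorter than all exons together. Tox rested on the lowest depth, with 5 to 17 counts a tumor.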
